A study of Mus musculus with 6 samples.

Results

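The 31 genes described here are markers by which neutrophils and blood monocytes are recognised when they enter tissue. They were chosen by name, with earlier results of these data known, so their counts beside those of all genes are descriptions. There were 17 neutrophil genes and 14 monocyte genes out of 29458 genes with a signal of their own on the array. Each of the 31 was read by 1 transcript cluster, the group of probes that the array assigns to a gene, and none of those clusters was shared with another named gene. Ribosome-bound mRNA was measured on 6 Affymetrix MoGene-2_0-st arrays, 3 for stroke and 3 for sham-operated controls. Stroke was made by tMCAO, a transient occlusion of the middle cerebral artery followed by reperfusion, and tissue was taken at 24 h. All 6 came from CD11brGFP transgenic mice aged 2 to 3 months, whose transgene puts RPL10a, a ribosomal protein fused to Flag and EGFP, under the CD11b promoter. The tagged ribosomes were pulled down by translating ribosome affinity purification (TRAP), and CD11b is made by microglia, macrophages, monocytes and neutrophils alike. No array of unpurified RNA was compared. Each group had 6 mice per the labels, but how they were spread over its 3 arrays is not stated, and one label names males only where another names both sexes equally. In bulk RNA such as this, fewer cells of a type and less RNA per cell cannot be told apart.

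Neutrophils are short-lived blood cells that are among the first to reach injured tissue. Their killing proteins are packed into granules in the bone marrow: the primary granules are filled at the promyelocyte stage with serine proteases and myeloperoxidase, and the later secondary and tertiary granules with lactoferrin, cathelicidin and collagenase. The mRNAs of primary granule proteins are largely gone from circulating neutrophils, whereas receptors and cytoplasmic proteins such as the stefins are still transcribed there. Classical monocytes carry the surface antigen Ly6C, follow ligands of the receptor CCR2 into tissue and become macrophages there, and several of their genes are shared with resident macrophages. The comparison of stroke with control arrays asks how the RNA of these genes in the tagged fraction differed 24 h after occlusion.

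The sequences shown here are the 250 bases before the annotated start of 5 of these genes, from RefSeq on GRCm38.p6, the build (mm10) that the array annotation also uses. The stefin genes Stfa2l1, Stfa2 and Stfa1 lie together on chromosome 16 and code for small inhibitors of cysteine proteases. They are shown because 1 of the 3, Stfa2l1, passed the test and its near copies did not. Whether the change between control and stroke differed from one stefin gene to another was not tested. The interval of the log2 difference of Stfa2, 0.14 to 1.70, contained the 1.24 of Stfa2l1. That of Stfa1, -0.65 to 0.33, did not. Lyz2, the lysozyme gene of phagocytes, is shown as a monocyte gene above the array median throughout. Elane, the gene of neutrophil elastase, is shown as the 1 granule gene whose stroke values all lay below its control values. Such a separation held for 4.89% of all genes, and Elane did not pass the test. Capitals mark GAGGAA or its reverse complement, the pattern searched here for the myeloid transcription factor PU.1. Other forms of its site were not searched.
Stfa2l1 (chr16:36156561-36156810, plus strand): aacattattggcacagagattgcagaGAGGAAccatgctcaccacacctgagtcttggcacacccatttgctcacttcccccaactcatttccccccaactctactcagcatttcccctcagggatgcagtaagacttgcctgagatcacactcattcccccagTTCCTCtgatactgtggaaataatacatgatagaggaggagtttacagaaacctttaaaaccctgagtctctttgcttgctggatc
Stfa2 (chr16:36408364-36408613, minus strand): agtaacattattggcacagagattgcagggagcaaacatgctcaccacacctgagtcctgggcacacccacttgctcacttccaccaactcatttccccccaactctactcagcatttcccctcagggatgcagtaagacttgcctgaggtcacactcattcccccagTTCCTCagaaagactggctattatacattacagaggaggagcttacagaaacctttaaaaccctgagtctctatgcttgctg
Stfa1 (chr16:36276898-36277147, plus strand): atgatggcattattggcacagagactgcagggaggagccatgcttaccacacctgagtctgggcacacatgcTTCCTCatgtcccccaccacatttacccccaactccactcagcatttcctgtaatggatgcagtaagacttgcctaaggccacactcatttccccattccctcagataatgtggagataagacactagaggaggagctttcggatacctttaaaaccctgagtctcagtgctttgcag
Lyz2 (chr10:117282273-117282522, minus strand): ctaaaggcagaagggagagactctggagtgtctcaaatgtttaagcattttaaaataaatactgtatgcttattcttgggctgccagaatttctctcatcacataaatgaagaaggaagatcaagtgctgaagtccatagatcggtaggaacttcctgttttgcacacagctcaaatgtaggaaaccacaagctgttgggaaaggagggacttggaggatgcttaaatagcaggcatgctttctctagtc
Elane (chr10:79886062-79886311, plus strand): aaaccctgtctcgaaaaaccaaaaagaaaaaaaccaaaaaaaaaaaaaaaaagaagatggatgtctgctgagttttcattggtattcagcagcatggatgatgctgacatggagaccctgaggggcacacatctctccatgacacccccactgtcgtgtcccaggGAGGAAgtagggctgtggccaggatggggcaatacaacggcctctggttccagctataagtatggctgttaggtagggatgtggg

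Over the 250 bases, Stfa2l1 shared 227 identical positions with Stfa2 (90.8% of the window) and 205 with Stfa1 (82.0%) in a global alignment, against 129 with Lyz2 and 126 with Elane. Searched on both strands, GAGGAA occurred in this window in 12 of 17 neutrophil genes and 3 of 11 monocyte genes for which a promoter was listed (not listed were Thbs1, Ly6i and Itgal), taking the first promoter listed for each, and in 23.3% of all 32851 promoters. The C/EBP pattern TTNNGCAA occurred in 5 of 17 and 1 of 11, against 9.56% of all promoters, and the RUNX pattern TGTGGT in 4 of 17 and 6 of 11, against 4614 of the 32851 promoters. A match to one pattern may overlap a match to another, and overlaps were kept. Stfa2l1, Stfa2 and Stfa1, near copies in this window, count as separate genes among those with GAGGAA and with TGTGGT. The shares of all promoters count every promoter listed for a gene. Stfa2l1 held GAGGAA at 224 bases before its start and the reverse complement at 86, Stfa2 held the reverse complement at 82 and Stfa1 at 178, and Elane held GAGGAA at 85. Lyz2 held no GAGGAA on either strand in this window, and other forms of a PU.1 site were not searched there. A match describes the sequence and is not shown to be bound.

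The median log2 signal of an array was 5.23 to 5.35 over the 6. Stroke array 2 and control array 2 lay away from the other 4 on the first principal component, at 34.61 for stroke and 48.89 for control against -26.61 to -14.44 for the others, with 45.1% of the variance. Of the genes that mark other cells, all 10 neuron genes, all 9 oligodendrocyte genes and all 8 measured astrocyte genes lay above the array median on all 6 arrays. So did 16 of 17 homeostatic microglia genes, against 50.6% of all genes. The neuron genes were brighter, with a median signal of 11.34 to 11.38 in stroke and 11.31 to 11.48 in control. For the microglia genes it was 7.66 to 7.79 in stroke and 6.98 to 7.46 in control. The share of RNA from cells without the tag was not tested. The lowest signal of any gene was 1.23, so a signal above 0 does not show a marker to be present. Itgam, the gene of CD11b itself, was at 6.96, 7.09 and 6.98 in stroke and at 5.72, 6.47 and 6.32 in control (1.78-fold; adjusted p = 0.276 by limma). Rpl10a averaged 10.42 ± 0.06 in stroke and 10.34 ± 0.15 in control (log2 signal, SD, n = 3 arrays each); whether its probes read the tagged transgene is not known. No detection calls were used, so a signal under the array median is not shown to be above background.

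Most of the 31 genes lay below the median signal of their array. Below the array median on all 6 arrays were 22 of the 31 genes, which is 71.0%, against 39.7% of all genes. Among the neutrophil genes it was 15 of 17, and among the monocyte genes 7 of 14. Prtn3 alone of the neutrophil genes lay above the median on every array, and Hdc did so on all 3 stroke arrays and 1 control array. Among the monocyte genes Vcan, Itga4, Thbs1, Mgst1, Lyz2 and Emilin2 lay above it on every array, and F10 on 5 of 6. The number of the 31 below the median was 22 on each stroke array and between 22 and 24 on the control arrays, a difference of at most 2 genes between arrays. Above it on all 6 arrays were 7 of the 31, against 50.6% of all genes. Probes differ in brightness, so these positions do not order the genes by abundance.

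**Figure D1:**
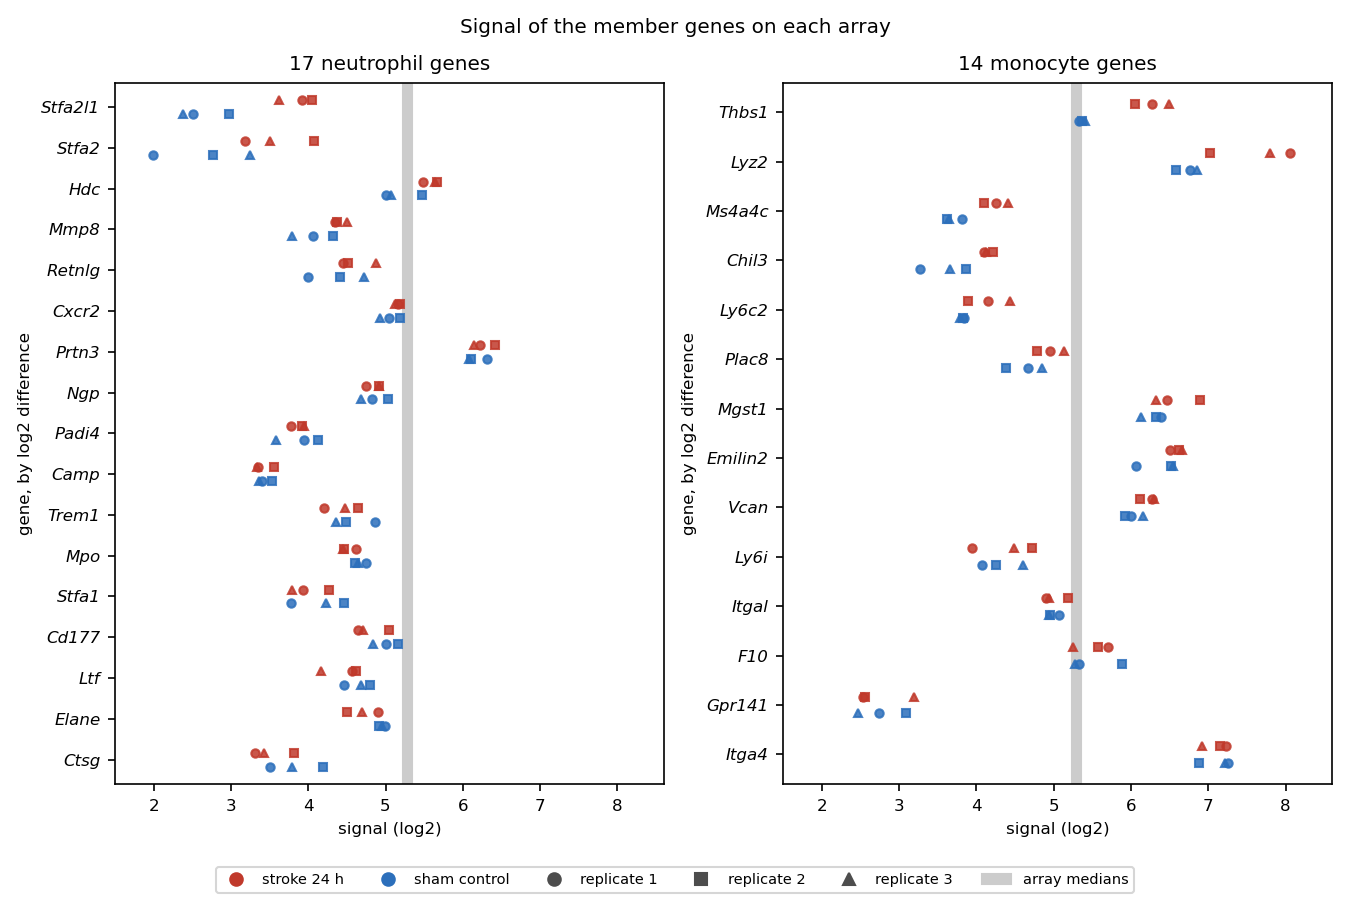
Signal of each of the 31 genes (log2, x axis) on the 3 stroke arrays (red, upper row of each gene) and the 3 control arrays (blue, lower row), with the marker giving the replicate number and the grey band the range of array medians, 5.23 to 5.35. Of the 17 neutrophil genes, 15 lie left of the band on every array, and of the 14 monocyte genes 7 do.

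Across the 31 genes, 1 rose, 0 fell and 30 did not pass the threshold (limma, adjusted p under 0.05 over all 29458 genes), while 0.421% of all genes rose and 0.00339% fell. The 1 gene also passed 2-fold, as 0.37% of all genes did. With the replicate number as a block the counts were again 1 and 0, against 0.519% and 0.0102% of all genes. At an unadjusted p under 0.05, 7 of the 31 were higher and 0 lower, against 3.69% and 2.07% of all genes. The 7 were Stfa2l1, Stfa2, Hdc, Thbs1, Lyz2, Ms4a4c and Chil3. All 3 stroke values lay above all 3 control values for 8 of the 31, which added Mmp8 and Ly6c2 and left out Stfa2, against 6.34% of all genes, and below them for Elane alone, against 4.89% of all genes. The median log2 difference was 0.25 for the monocyte genes and -0.0023 for the neutrophil genes, beside -0.01 over all genes. The neutrophil median changed sign with the scaling, to 0.05 with quantile normalization and 0.04 with array medians centred, so no direction is read from it. For 27 of the 31 genes the upper end of the 95% interval of the difference lay under 2-fold, as it did for 96.6% of all genes. The exceptions were Stfa2l1, Stfa2, Thbs1 and Lyz2.

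**Figure D2:**
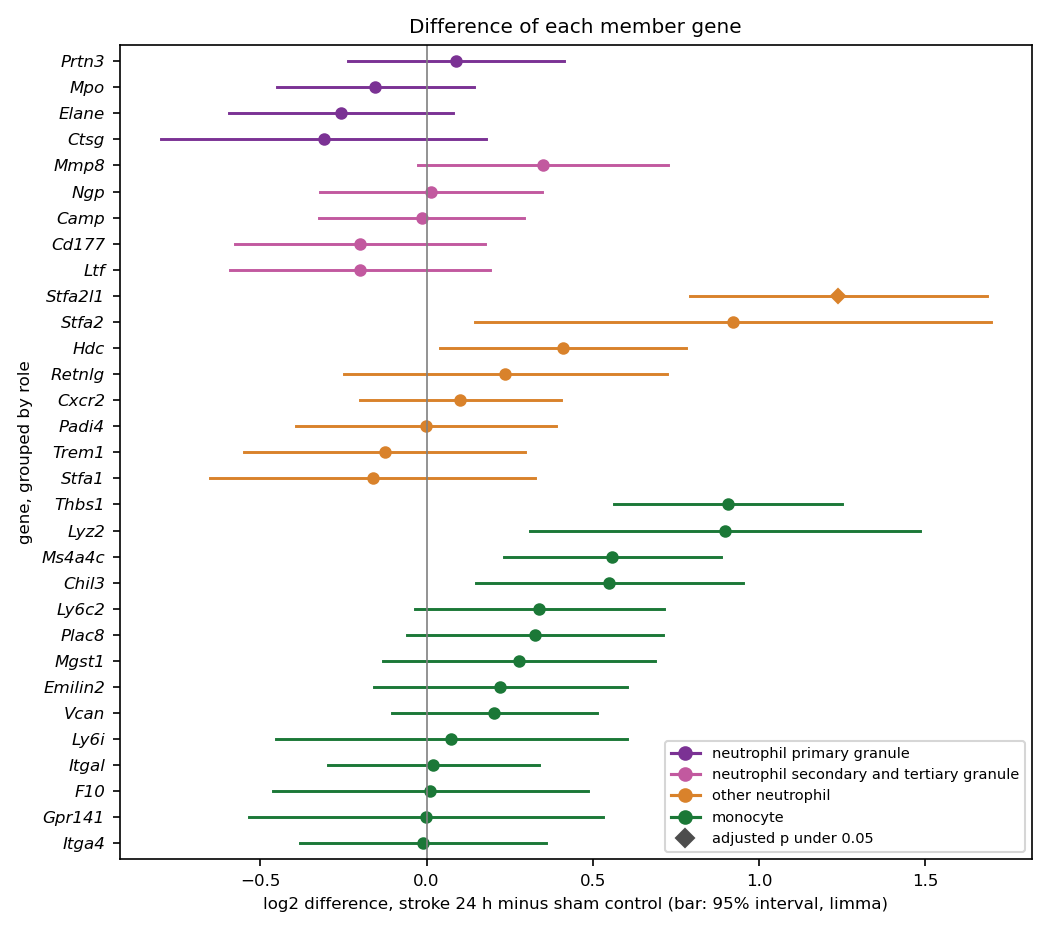
Log2 difference between stroke and control for each of the 31 genes (x axis; point, limma estimate; bar, 95% interval), grouped by role and ordered by size within a role. Stfa2l1, drawn as a diamond, is the 1 gene past the threshold, and the intervals of all 9 granule genes end at 0.73 or below, which is 1.65-fold.

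None of the 4 primary granule genes passed the threshold, where 0.421% of all genes rose and 0.00339% fell. Of the 4, 3 had lower means in stroke and 1 a higher mean, against 47.2% of all genes with a higher mean. Elane was at 4.90, 4.50 and 4.69 in stroke, against 4.996, 4.92 and 4.95 in control. All its stroke values were below its control values, yet the log2 difference of -0.26 did not pass (95% interval -0.59 to 0.08; adjusted p = 0.988). Mpo, the gene of myeloperoxidase, which makes hypochlorous acid, was at 4.62, 4.47 and 4.45 in stroke, against 4.75, 4.61 and 4.64 in control. The Mpo groups overlapped at 1 value, and its difference was -0.15 (-0.45 to 0.14). Ctsg, the gene of the protease cathepsin G, was at 3.32, 3.82 and 3.43 in stroke, against 3.504, 4.19 and 3.79 in control, with array 2 the highest of both groups. Prtn3, the gene of proteinase 3 and the neighbour of Elane on chromosome 10 (79879667 to 79883174, with Elane at 79886312 to 79888216), was at 6.22, 6.41 and 6.15 in stroke and at 6.31, 6.11 and 6.09 in control. Its groups overlapped, and its difference of 0.09 was -0.02 without both arrays numbered 2. Of these 4 genes Prtn3 had the highest upper bound, 1.33-fold.

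The secondary and tertiary granule genes also gave 0 of 5 past the threshold, where 0.421% of all genes rose and 0.00339% fell. Camp, the gene of the antimicrobial cathelicidin, was at 3.36, 3.56 and 3.34 in stroke, against 3.40, 3.53 and 3.37 in control. Ngp, which codes for a related granule protein, was at 4.74, 4.92 and 4.92 in stroke, against 4.83, 5.03 and 4.68 in control. Both pairs of groups overlapped almost fully, with differences of -0.01 for Camp (95% interval -0.32 to 0.29) and 0.01 for Ngp (-0.32 to 0.35). Ltf, the gene of the iron-binding protein lactoferrin, was at 4.57, 4.61 and 4.17 in stroke, against 4.47, 4.80 and 4.68 in control. Cd177, which codes for a neutrophil surface protein that carries proteinase 3, was at 4.65, 5.05 and 4.71 in stroke, against 5.01, 5.17 and 4.83 in control. Ltf and Cd177 overlapped between groups and each differed by -0.20. Mmp8, the gene of neutrophil collagenase, was at 4.35, 4.38 and 4.50 in stroke, against 4.06, 4.32 and 3.79 in control. Its 3 stroke values were the 3 highest, but the difference of 0.35 (1.28-fold; interval 0.983 to 1.65) did not pass (adjusted p = 0.921). Summed over the 9 granule genes on the linear scale, the signal was 236 to 264 in stroke and 242 to 270 in control.

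Stfa2l1 was the 1 gene of the 31 that passed. Its signal was 3.92, 4.04 and 3.63 in stroke, against 2.51, 2.97 and 2.38 in control. The groups were well apart, 2.36-fold (log2 difference 1.24 ± 0.19 SE; adjusted p = 0.0496, and 0.0206 with the replicate number as a block), but all 6 values lay below the array median. The call was lost in 5 of the 6 fits that left out 1 array, where the adjusted p lay between 0.0309 and 0.25, holding only without control array 2. It was also lost with trend and robust eBayes (adjusted p = 0.052) and when clusters with several symbols joined the fit (0.0527), while the difference stayed between 1.12 and 1.42 in the fits with 1 array left out. In the authors' deposited table the false discovery rate of Stfa2l1 is 0.0596. There 0 of the 31 genes are below 0.05, beside 107 of all 34472 clusters.

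Stfa2 was at 3.18, 4.08 and 3.51 in stroke, against 2.00, 2.76 and 3.25 in control. Its lowest stroke value lay under its highest control value, and the difference of 0.92 did not pass (1.89-fold, 95% interval 1.11 to 3.24; adjusted p = 0.729). Stfa1 was at 3.93, 4.27 and 3.78 in stroke, against 3.77, 4.47 and 4.23 in control, with overlapping groups and a difference of -0.16. Of the other stefin-like genes with a cluster of their own, looked up after the values of the 31 were seen, Stfa3 differed by -0.15, Gm5483 by 0.02, Csta1 by 0.20 and BC117090 by 0.55, and 0 of these 4 passed. Stefins are a multigene family, and whether the probes of one also bind transcripts of another was not tested, so the value of Stfa2l1 is uncertain in this respect.

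Receptors and enzymes of mature neutrophils did not pass either. Cxcr2, the receptor through which neutrophils follow CXC chemokines, was at 5.16, 5.19 and 5.12 in stroke, against 5.04, 5.19 and 4.93 in control, a difference of 0.10 with an upper bound of 1.32-fold. Padi4, whose enzyme citrullinates histones when neutrophils release extracellular traps, was at 3.78, 3.92 and 3.95 in stroke, against 3.94, 4.13 and 3.58 in control. Both genes overlapped between groups, and the difference of Padi4 was -0.0023. Retnlg, a resistin-like gene of mouse neutrophils, was at 4.45, 4.51 and 4.88 in stroke, against 4.0004, 4.41 and 4.72 in control (0.24). Trem1, a receptor of neutrophils and monocytes that amplifies inflammatory signals, was at 4.21, 4.65 and 4.47 in stroke, against 4.86, 4.49 and 4.36 in control (-0.13). These groups overlapped as well. Hdc, the histidine decarboxylase that makes histamine in neutrophils, basophils and mast cells, was at 5.49, 5.66 and 5.63 in stroke, against 5.01, 5.47 and 5.08 in control. Its groups were just apart, at 1.33-fold (unadjusted p = 0.0332, adjusted p = 0.787 by limma). The 9 mast cell and basophil genes, Hdc among them, summed to 336 to 417 in stroke and 344 to 400 in control on the linear scale. Of the 9, 7 lay below the array median on all arrays, against 39.7% of all genes. Their part in the Hdc difference was not tested.

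Of the 14 monocyte genes 12 had a higher mean in stroke, against 47.2% of all genes, and 0 passed the threshold (limma; 4 were higher at an unadjusted p under 0.05, against 3.69% of all genes). Thbs1, the gene of the matrix protein thrombospondin 1, which platelets, monocytes and astrocytes release, came closest. Its signal was 6.27, 6.05 and 6.49 in stroke, against 5.33, 5.36 and 5.40 in control. The control values were nearly equal and every stroke value lay above them, 1.87-fold (log2 difference 0.91 ± 0.15 SE; adjusted p = 0.0581, and 0.0542 with the replicate block). It passed where only genes above the median signal were tested (adjusted p = 0.0361), a fit with fewer genes. The 7 measured platelet genes summed to 213 to 280 in stroke and 218 to 274 in control. Of their differences 2 were above 0 and 5 below, with a median of -0.09. The platelet chemokine Pf4 was 1.43-fold higher (adjusted p = 0.787 by limma), and it is also in the list of border-associated macrophage genes used below. Gp9, a subunit of the platelet receptor for von Willebrand factor, was at a difference of -0.08. The 8 astrocyte genes summed to 9804 to 11250 in stroke and 8110 to 9022 in control, with all 8 differences above 0, against 47.2% of all genes. The part of either cell type in the Thbs1 difference was not tested.

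Lyz2, the lysozyme that neutrophils, monocytes and macrophages all make, was at 8.06, 7.02 and 7.80 in stroke, against 6.76, 6.58 and 6.85 in control. Array 2 was the lowest of both groups, and all 3 stroke values lay above the control values. The difference of 0.90 did not pass (1.86-fold, 95% interval 1.24 to 2.80; adjusted p = 0.428). It was 1.20 without stroke array 2, 0.68 without stroke array 1 and 1.12 without both arrays numbered 2 (adjusted p = 0.0667 for the last). The near copy Lyz1 was at 4.65, 5.56 and 4.75 in stroke, against 5.03, 4.54 and 4.60 in control, overlapping between groups. The 17 homeostatic microglia genes summed to 4178 to 5394 in stroke and 2680 to 3745 in control. Of their differences 15 of 17 were above 0, against 47.2% of all genes, with a median of 0.35. Bright genes weigh most in such a sum, and C1qb was at 10.02 to 10.51 in stroke and 8.52 to 9.43 in control. Sparc, the other of the 2 brightest microglia genes, overlapped between groups, at 8.87 to 9.40 in stroke and 8.65 to 9.31 in control (1.14-fold). The 11 genes of border-associated macrophages summed to 621 to 659 in stroke and 462 to 489 in control. Of their differences 10 of 11 were above 0, and none passed. The 2 brightest, Lyve1 and Cbr2, were 1.49-fold and 1.32-fold higher (adjusted p = 0.364 and 0.787 by limma). Of the microglia genes 0 passed by limma. At an unadjusted p under 0.05, 6 were higher and 1 lower, against 3.69% and 2.07% of all genes. With the replicate block 2 rose, C1qb (adjusted p = 0.0224 by limma) and C1qc, against 0.519% of all genes. The part of microglia or border-associated macrophages in the Lyz2 difference was not tested.

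Ms4a4c, a membrane protein gene of the MS4A family, was at 4.25, 4.10 and 4.41 in stroke, against 3.82, 3.62 and 3.65 in control. Chil3, the chitinase-like protein Ym1 of myeloid cells, was at 4.09, 4.22 and 4.12 in stroke, against 3.26, 3.87 and 3.66 in control. Both had separate groups and similar differences, 0.56 for Ms4a4c (adjusted p = 0.31) and 0.55 for Chil3 (adjusted p = 0.556), while their near copies Ms4a4b, Ms4a4d and Chil4 differed by -0.05, 0.06 and 0.08. Ly6c2, which codes for the Ly6C antigen that defines classical monocytes, was at 4.15, 3.89 and 4.43 in stroke, against 3.84, 3.83 and 3.79 in control. Its control values were nearly identical and stroke array 2 lay just above them, so the difference of 0.34 was 0.47 without that array (adjusted p = 0.939 with all arrays). Plac8, a gene of monocytes and neutrophils, was at 4.95, 4.79 and 5.14 in stroke, against 4.67, 4.38 and 4.84 in control, overlapping by 1 value on each side, and differed by 0.33. The antigen gene Ly6i, of the same family as Ly6c2, was at 3.94, 4.72 and 4.48 in stroke, against 4.07, 4.26 and 4.60 in control. Its groups overlapped, and its difference of 0.07 was -0.12 without both arrays numbered 2. Of 2 further genes of this family, looked up after the values were seen, Ly6c1 differed by -0.05 (adjusted p = 1) and Ly6a was at 8.40 ± 0.13 in stroke and 7.43 ± 0.21 in control (1.95-fold, n = 3 arrays each; adjusted p = 0.0547 by limma, and 0.031 with the replicate block), and cross-binding within the family was not tested.

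The remaining monocyte genes overlapped between groups. Mgst1, a membrane-bound glutathione transferase, differed by 0.28 (0.11 without stroke array 2 and 0.14 without both arrays numbered 2). Emilin2, an elastin-associated matrix glycoprotein, differed by 0.22 (0.07 without control array 1), and Vcan, the proteoglycan versican, by 0.20. F10, coagulation factor X, differed by 0.01, with stroke values from 5.25 to 5.70 and control values from 5.27 to 5.89. Both integrins overlapped too. Itgal, the alpha chain of LFA-1, which leukocytes use to bind ICAM-1, was at 4.90 to 5.18 in stroke and 4.93 to 5.07 in control, and Itga4, the alpha chain of VLA-4, which binds VCAM-1, at 6.92 to 7.23 in stroke and 6.87 to 7.25 in control. Gpr141, an orphan receptor gene, was at 2.53 to 3.19 in stroke and 2.47 to 3.08 in control. Without Thbs1 and Lyz2, the 12 other monocyte genes had a median of 0.21, and their summed linear signal was 576 to 623 in stroke and 528 to 549 in control. Among the stroke arrays, array 2 was the lowest for 6 of 14 monocyte genes (42.9%) and 1 of 17 neutrophil genes (5.88%), against 34% of all genes. It was the highest for 11 of 17 neutrophil genes (64.7%), against 45.5% of all genes.

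**Figure D3:**
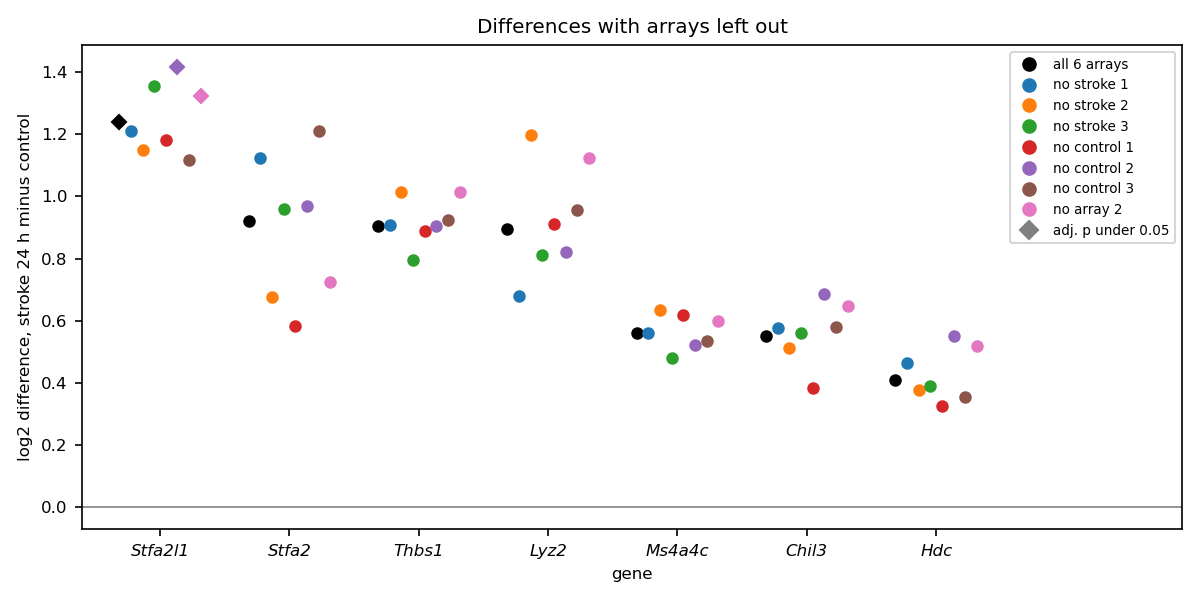
Log2 difference between stroke and control (y axis) for the 7 genes with an unadjusted p under 0.05, with all 6 arrays (black) and with each array, or both arrays numbered 2, left out (colours). All differences stay above 0, the 7 were picked by these same values, and Stfa2l1 is past the threshold (diamond) with all arrays, without control array 2 and without both arrays numbered 2.

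Other neutrophil genes, taken from a list that left out the 17, rose in part. Of 20, 2 rose, 0 fell and 18 did not pass, with a median of 0.23, where 0.421% of all genes rose and 0.00339% fell. With the replicate number as a block 5 rose, against 0.519% of all genes, and with any 1 array left out 1 did. The list was chosen with earlier results of these data known. Lcn2, which binds iron-carrying siderophores and is also made by reactive astrocytes, was at 8.29, 8.37 and 8.42 in stroke, against 5.54, 5.02 and 6.05 in control (7.08-fold; adjusted p = 0.00493). Il1r2, the decoy interleukin 1 receptor, was at 5.44, 5.49 and 5.25 in stroke, against 3.97, 4.27 and 4.36 in control (2.29-fold; adjusted p = 0.0238). S100a8 and S100a9, whose products form calprotectin, an abundant cytosolic protein of neutrophils, were 2.36-fold and 2.14-fold higher without passing (adjusted p = 0.111 and 0.257), and passed with the block (0.0165 and 0.0432). S100a8 was at 5.79, 6.33 and 5.74 in stroke, against 4.61, 5.13 and 4.41 in control. Ly6g, the antigen by which mouse neutrophils are sorted, was at 4.50, 4.47 and 4.02 in stroke, against 3.67, 4.58 and 4.09 in control. Its groups overlapped and it stayed below the median on all arrays, as the granule genes other than Prtn3 did.

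Of 20 other monocyte genes, 2 rose, 0 fell and 18 did not pass (median 0.29), where 0.421% of all genes rose. With the block 4 rose, which added Tgfbi and S100a6, against 0.519% of all genes. The count without the block was 0 without stroke array 1 or stroke array 3, and 1 without control array 2, control array 3 or both arrays numbered 2. Vim, an intermediate filament gene of many cell types, was at 11.11, 10.66 and 10.83 in stroke, against 9.71, 8.76 and 9.12 in control (3.19-fold; adjusted p = 0.0394). Cd44, the hyaluronan receptor, was at 6.53, 6.74 and 6.72 in stroke, against 5.42, 5.21 and 4.95 in control (2.77-fold; adjusted p = 0.0127). Ccr2, the receptor that defines classical monocytes together with Ly6C, was at 4.32, 4.24 and 4.16 in stroke, against 3.98, 3.91 and 3.48 in control. Its groups were apart, at 1.37-fold, below the array median throughout and without passing (adjusted p = 0.722). Of 18 genes of recruitment and adhesion 3 rose, 0 fell and 15 did not pass (median 0.65), where 0.421% of all genes rose. The 3 were the CCR2 ligands Ccl12, Ccl2 and Ccl7, at 9.15-fold, 7.77-fold and 4.05-fold (adjusted p = 0.000614, 0.00294 and 0.0167 by limma). The count was 2 to 3 with 1 array left out. None of 15 lymphocyte and natural killer cell genes passed by limma, with a median of -0.14. At an unadjusted p under 0.05, 0 were higher and 3 lower, against 3.69% and 2.07% of all genes. Red blood cell genes gave 0 of 5 past the threshold (0 also at an unadjusted p under 0.05), with Hba-a2 and Hba-a1, of the alpha globin chains, at -0.25 and -0.32.

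**Figure D4:**
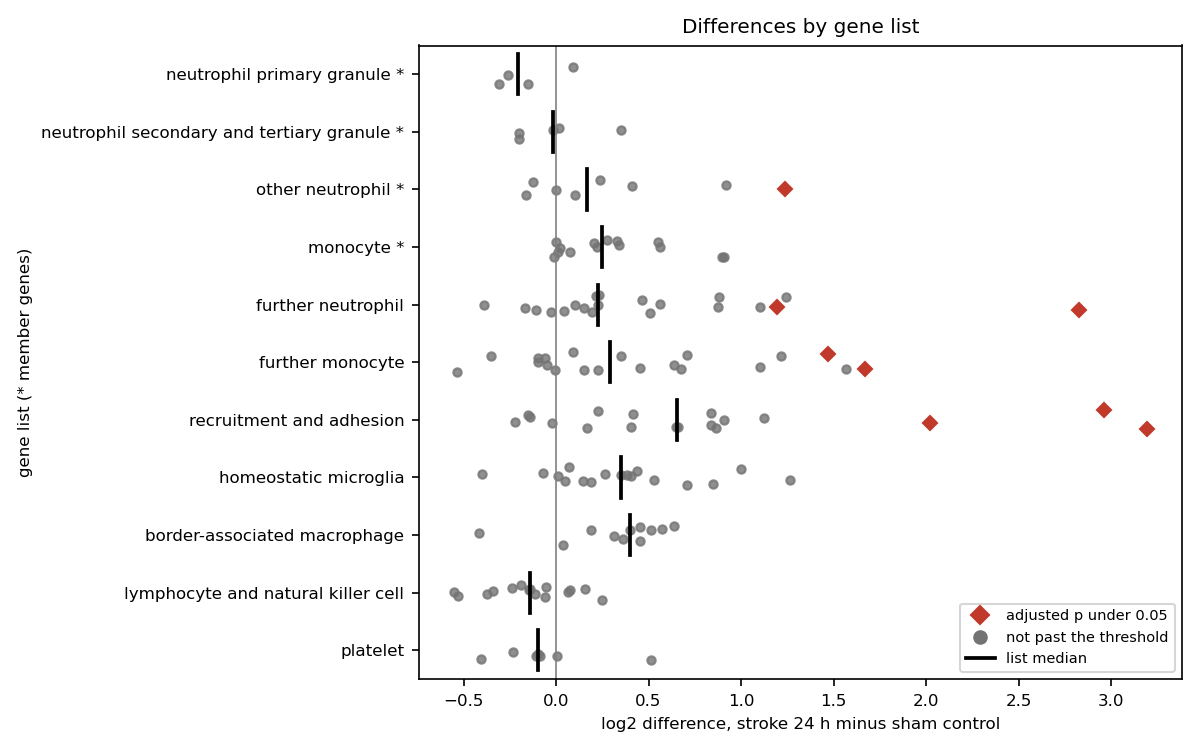
Log2 difference between stroke and control (x axis) for the genes of each list (points), with the list median (black bar) and genes past the threshold in red. The medians are -0.21 for the primary granule list, -0.01 for the secondary and tertiary granule list and 0.25 for the monocyte list, and the recruitment list reaches 3.19 at Ccl12.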

How the data were processed

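Per the labels, 100 ng of ribosome-associated RNA went onto each of 6 arrays. The value table deposited by the authors holds 41345 transcript clusters as log2 signals. Transcriptome Analysis Console 3.0 is named by the submitters' processing notes, with summarisation and scaling methods not given in the sources used here but already applied. The workbook deposited by the authors gives, per the file headers (annotation na36, mm10), group averages in log2 units, a fold change that is a signed score, and p-values; gene symbols come from it. Clusters without a symbol (9472) or with several (1902) were left out, and the brightest cluster stood for a symbol, leaving 29458 genes.

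Differences, stroke minus control, were tested with limma 3.58.1 (R 4.3.3; lmFit and eBayes), p-values were adjusted by Benjamini-Hochberg across all genes, with a threshold of 0.05 and no filter; intervals are 95% and unadjusted. The procedure was tested on simulated data. Lists were described by counts and medians. All 31 members are named, with up to 4 genes past the threshold per other list (or its 2 brightest) and Itgam, Rpl10a, Ly6g, Ccr2, S100a8 and S100a9; further genes passing only with the block, near copies and list genes of other cells were named after values were seen. Members and lists were chosen with earlier results of these data known. Same-numbered arrays deviated together across genes (r = 0.299, 0.576 and 0.39 for numbers 1, 2 and 3; unlike numbers -0.46 to 0.237), a hint from the data. Deviations were taken from each group's own mean, so the r of like and unlike numbers are not independent. Blocked values or blocked counts stand beside results whose call the block changes. The labels do not say how animals were assigned to arrays, so p-values measure the spread between these arrays, whose number limits the precision. Alignments used Biopython 1.88.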

Additional observations from a re-analysis of the deposited data

How the results depend on the processing

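The number of the 31 genes called higher was 1, Stfa2l1, with the replicate block, quantile normalization, centred medians, the mean over clusters and without both arrays numbered 2. It was 0 with trend and robust eBayes, with all clusters that carry any symbol and with all clusters of the value table (adjusted p = 0.127, an alternative chosen after seeing the data), and 0 to 1 without 1 array, while none was called lower (0 to 0). With genes above the median signal only, where 7 of the 31 remained in the fit, the 1 call was Thbs1. Over all genes 124 were higher; the count was 153 with the replicate block, 36 with all clusters, 70 without both arrays numbered 2 and 25 to 73 without 1 array. The 1 lower gene became 3 with the replicate block, 0 with all clusters, 0 without both arrays numbered 2 and 0 to 1 without 1 array. The neutrophil median of -0.0023 became 0.0524 with quantile normalization, 0.0433 with centred medians, 0.0899 with genes above the median only (the value of Prtn3, the 1 neutrophil gene left in that fit), and -0.0711 to 0.0592 without 1 array. The monocyte median stayed between 0.1955 and 0.3104 without 1 array.

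Differences near 0 changed sign without ever passing. With quantile normalization Camp became 0.026, Padi4 0.0524 and Gpr141 0.0135; with centred medians Camp 0.031, Padi4 0.0433, Itga4 0.0353 and Gpr141 0.0433; without both arrays numbered 2 Prtn3 -0.0164, Padi4 0.1019, Ly6i -0.1221, Itgal -0.0841 and Gpr141 0.2629. Without 1 array the ranges were -0.0711 to 0.1059 for Ngp, -0.0859 to 0.0339 for Camp, -0.156 to 0.1216 for Padi4, -0.2316 to 0.0207 for Trem1, -0.1014 to 0.208 for F10, -0.1304 to 0.0811 for Itga4, -0.0957 to 0.2941 for Ly6i, -0.0674 to 0.0739 for Itgal and -0.22 to 0.1593 for Gpr141. The cause was not tested. The replicate block ended no call among the 31 genes. Beyond the genes given with blocked values or named as passing with the block, it changed no other call among those named. The count below the array median could not be given for the fit of genes above the median. Most of these signals were below the array median, and no detection calls were used.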
